A study of Homo sapiens with 4 samples.

Results

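The TAL1 complex transcription factors are 10 genes, TAL1, LYL1, LMO1, LMO2, LDB1, GATA3, RUNX1, TCF3, TCF12 and MYB. They were chosen by symbol, and all 10 were found among the 60609 gene identifiers of the table. RNA was measured in CCRF-CEM, an established human T cell acute lymphoblastic leukaemia line, in a derivative labelled CCRF-CEM/HA-AMPKa2, for a tagged catalytic subunit of the energy sensor AMPK. Both groups were this same derivative in RPMI medium with fetal bovine serum, and the labels do not give the promoter of the tagged gene or say whether the derivative is 1 clone. The control group (Ctrl, libraries CTRL_7 and CTRL_8) received control medium, and the No glucose group (ONG_9 and ONG_10) was kept in medium without glucose. The time was 24 hours for both groups. The comparison addresses which transcripts differ after glucose withdrawal.

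TAL1 is a basic helix-loop-helix factor of blood stem cells and red cell precursors that is normally silenced as T cells mature. In T cell leukaemia its ectopic expression assembles a complex in which TAL1 pairs with an E protein, TCF3 (E2A) or TCF12 (HEB), and LMO1 or LMO2 and LDB1 bridge this pair to GATA3 and RUNX1. MYB is both a target and a partner of that complex, and TAL1, GATA3, RUNX1 and MYB sustain one another's transcription. CCRF-CEM is known to carry a deletion that places TAL1 under the promoter of its upstream neighbour STIL; the deletion itself was not examined here.

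Start regions of TAL1, of STIL, whose promoter drives TAL1 in this line, and of the loop genes RUNX1 and MYB are shown so that the recognition letters of the complex can be seen where they occur. Each is the 250 bases before a start site in RefSeq (GRCh38.p14), 5′ to 3′ on the strand of the gene. Capitals mark matches on either strand. The letters searched were the E-box CANNTG, bound by basic helix-loop-helix pairs. GATA factors were represented by AGATAA. Their second form was TGATAA. RUNX factors were represented by TGTGGT. An E-box read on both strands was counted once, and no match shown overlaps another. TAL1 has 2 start regions in the table, chr1:47232336-47232585 and chr1:47231716-47231965, both on the minus strand, the second of them inside the span of the gene. STIL is at chr1:47314148-47314397 on the minus strand, RUNX1 at chr21:34888700-34888949 on the minus strand, inside the span of the gene, and MYB at chr6:135181058-135181307 on the plus strand.
TAL1, first start: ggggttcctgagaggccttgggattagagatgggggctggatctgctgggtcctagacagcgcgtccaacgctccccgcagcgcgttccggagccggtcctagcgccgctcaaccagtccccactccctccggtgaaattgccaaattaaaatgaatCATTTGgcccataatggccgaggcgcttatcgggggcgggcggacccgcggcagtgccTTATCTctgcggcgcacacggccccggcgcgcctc
TAL1, second start: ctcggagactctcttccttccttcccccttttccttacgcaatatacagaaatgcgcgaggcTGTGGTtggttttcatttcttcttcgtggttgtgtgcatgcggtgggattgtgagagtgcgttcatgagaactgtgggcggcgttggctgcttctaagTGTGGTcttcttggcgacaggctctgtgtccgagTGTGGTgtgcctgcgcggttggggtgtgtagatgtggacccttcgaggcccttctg
STIL: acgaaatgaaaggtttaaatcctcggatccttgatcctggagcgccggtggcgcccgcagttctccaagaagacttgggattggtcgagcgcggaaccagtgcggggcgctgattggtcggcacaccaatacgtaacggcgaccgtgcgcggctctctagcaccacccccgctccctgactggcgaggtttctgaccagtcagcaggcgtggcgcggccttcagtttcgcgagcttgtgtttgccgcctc
RUNX1: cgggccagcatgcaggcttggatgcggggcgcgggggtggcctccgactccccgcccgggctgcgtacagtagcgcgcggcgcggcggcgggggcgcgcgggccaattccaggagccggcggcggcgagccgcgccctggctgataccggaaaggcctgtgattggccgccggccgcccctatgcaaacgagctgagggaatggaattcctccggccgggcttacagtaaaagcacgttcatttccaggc
MYB: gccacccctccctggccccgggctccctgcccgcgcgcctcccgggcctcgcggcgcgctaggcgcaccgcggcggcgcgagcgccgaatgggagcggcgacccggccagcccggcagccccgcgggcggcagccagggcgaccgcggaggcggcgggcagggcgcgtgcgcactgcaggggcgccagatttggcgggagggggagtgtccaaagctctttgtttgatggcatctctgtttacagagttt
The first TAL1 region holds 1 E-box and 1 AGATAA match, and the second holds 3 matches to TGTGGT. None of these motifs occurs in the STIL, RUNX1 or MYB region. Among 35116 RefSeq start regions of this length, 61.8% hold CANNTG, 9.17% hold AGATAA, 6.66% hold TGATAA and 10.98% hold TGTGGT. For 9 members the table gives 19 regions in all. CANNTG occurs in 5 of them, of GATA3, TAL1 and TCF12, TGTGGT in 2, of GATA3 and TAL1, AGATAA in 1, of TAL1, and TGATAA in 1, of LYL1. A match is a description of letters and not a measured binding site.

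The libraries held 96698709 reads for genes in CTRL_7, 24513840 in CTRL_8, 19035535 in ONG_9 and 20081266 in ONG_10. All 13 T cell markers examined were present, with a summed level of 69912 to 72128 normalized counts in the 4 libraries. Of these 13, 4 were called higher without glucose and 2 lower. Over all genes tested 14.4% were called higher and 20.7% lower. Over protein-coding genes with a mean of at least 50 normalized counts the shares were 18.9% and 47.2%. TRAC, a T cell receptor constant gene, went from 82.1 and 91.0 to 878 and 826, and TRBC1, CD3E and CD247 also rose, while CD7 (log2 fold change -0.92) and CD3G (-0.45) fell. Of 7 erythroid markers none reached a mean of 10, HBB, HBG1 and HBG2 had 0 reads, and their sum was 6.06 to 12.0. Of 6 myeloid markers 2 passed a mean of 10 and MPO had 0 reads, with sums of 33.4 to 54.7. Of 6 B cell markers 4 passed it, and their sum was 915 to 934 in Ctrl and 541 to 557 without glucose, of which CD79A was 663 to 670 and 423 to 449, while MS4A1 was at or near 0. Of 7 fibroblast, epithelial and endothelial markers 2 passed it (PECAM1 and EPCAM), with sums of 1654 to 1675 and 1069 to 1196. The part of these shifts in the results below was not tested. Fewer cells of a type and less RNA per cell cannot be told apart in bulk RNA.

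Without glucose the complex did not move as a block: GATA3, RUNX1, TCF12 and MYB rose, while TAL1, LYL1, LMO2 and TCF3 fell. LDB1 did not pass the test, and LMO1 had no reads. Values are normalized counts (the authors' counts divided by a size factor per library), and a change is called at an adjusted p under 0.05 with limma and Benjamini-Hochberg adjustment over all 27486 genes tested. By this rule 4 of 9 tested members were higher and 4 were lower. Of the 4 lower members, TAL1 alone was also called with DESeq2 or with limma on library totals. The 4 higher members were called with both. Of all genes tested 14.4% were higher and 20.7% lower, 35.1% in either direction. Among 10656 protein-coding genes with a mean of at least 50 normalized counts, which all 9 tested members are, 18.9% were higher, 47.2% lower and 66.0% either. A share of 8 called members in 9 therefore stands beside a background in which most such genes were called. The groups did not overlap for any of the 9 tested members, and the same held for 66.8% of all genes tested and for 85.3% of those protein-coding genes. The median log2 fold change of the 9 members was -0.08, against 0.04 for all genes tested and -0.20 for those protein-coding genes.

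**Figure D1:**
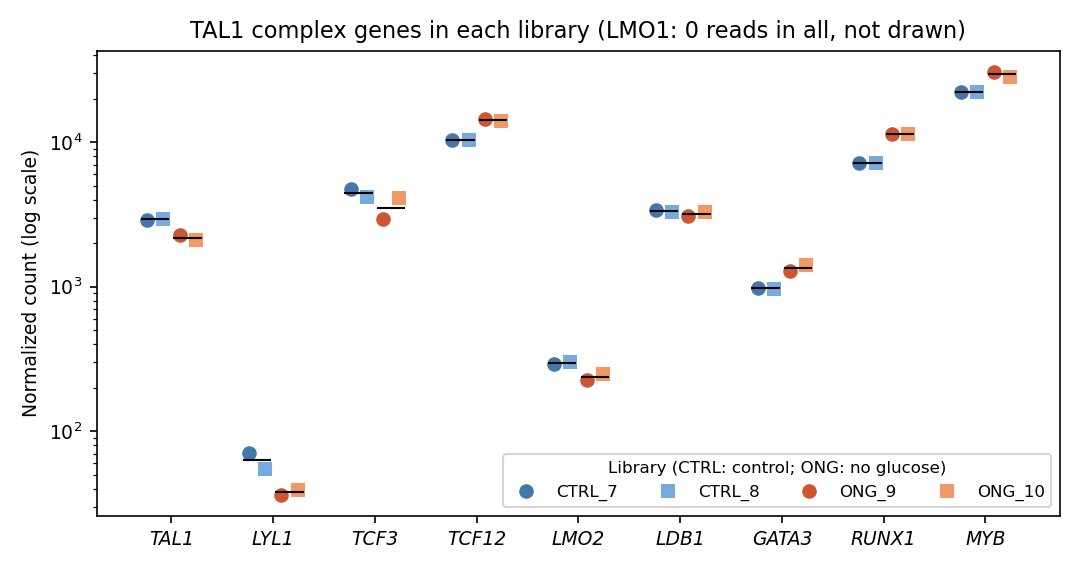
Normalized counts (log axis) of 9 TAL1 complex genes, with 1 point per library (circles and squares tell the libraries of a group apart) and a line at each group mean. RUNX1, TCF12, GATA3 and MYB sit higher in both No glucose libraries, TAL1, LYL1 and LMO2 lower, and the TCF3 point of ONG_10, at 4094, lies just under that of CTRL_8, at 4211.

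TAL1 (ENSG00000162367, chr1:47216290-47232220, minus strand), the factor that defines the complex, had 2917 and 2944 normalized counts in CTRL_7 and CTRL_8 and 2265 and 2119 in ONG_9 and ONG_10. Both No glucose libraries were lower and the groups did not overlap. The log2 fold change was -0.42 ± 0.06 (SE, adjusted p = 0.00024). With scaling to library totals it was -0.21 (adjusted p = 0.012), while the median of all genes tested moved from 0.04 to 0.23. The call was lost when either control was left out, at adjusted p = 0.082 without CTRL_7 and 0.090 without CTRL_8, with values of -0.43 and -0.41. An antisense gene at the locus (ENSG00000226252) shares 845 exonic bases with TAL1. It had 104, 108, 147 and 142 normalized counts in the order CTRL_7, CTRL_8, ONG_9, ONG_10, opposite in direction to TAL1. Since the counting strand is not given in the sources used here, reads of these overlapping genes may be mixed.

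STIL, a centrosome protein gene whose promoter is known to drive TAL1 in this line, had 2402 and 2290 normalized counts in Ctrl and 2318 and 2258 without glucose. Its groups overlapped, and the log2 fold change was -0.04 ± 0.06 (SE, adjusted p = 0.70). With scaling to library totals STIL was called higher, at 0.17 (adjusted p = 0.025). CMPK1, a nucleotide kinase gene on the far side of STIL, fell by 0.54 on the log2 scale (adjusted p = 1.5e-05; 0.055 without CTRL_7 and 0.057 without CTRL_8). PDZK1IP1, which also neighbours TAL1, had 7.02 to 12.1 normalized counts in the 4 libraries.

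LYL1 (ENSG00000104903, chr19:13099033-13103161, minus strand), the closest relative of TAL1 and able to occupy its place, was scarce. It had 71.1 and 54.8 normalized counts in Ctrl and 36.4 and 39.3 without glucose, the latter resting on 24 and 28 reads. The No glucose libraries lay below both controls, and the log2 fold change was -0.71 ± 0.22 (SE, adjusted p = 0.026). It was not called with DESeq2 (0.17), with limma on library totals (0.11), after a correction for GC content and length (0.066) or with any 1 library left out (0.094 to 0.29). TAL1 exceeded LYL1 by 41.0, 53.7, 62.2 and 53.9 times in CTRL_7, CTRL_8, ONG_9 and ONG_10. The difference of this within-library log2 ratio between groups was 0.29, with an exact two-sided permutation p of 0.67, in a design of 2 against 2 whose smallest p is 0.33. Leaving out CTRL_7 gave a difference of 0.099 and leaving out CTRL_8 gave 0.48. With a pseudocount of 0.5 the exact permutation p was 0.33.

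The E protein partners went in opposite directions. TCF12 (ENSG00000140262, chr15:56918623-57299281, plus strand) had 10459 and 10298 normalized counts in Ctrl and 14613 and 14097 without glucose, both above both controls. Its log2 fold change was 0.47 ± 0.05 (SE, adjusted p = 1.8e-05), and the call was lost without CTRL_7 (0.064) or without CTRL_8 (0.075). TCF3 (ENSG00000071564, chr19:1609290-1652605, minus strand) had 4760 and 4211 in Ctrl, and 2938 in ONG_9 but 4094 in ONG_10. The No glucose libraries thus differed from each other more than ONG_10 differed from either control, and the groups were narrowly separate. The log2 fold change of TCF3 was -0.37 ± 0.12 (SE, adjusted p = 0.037). It was -0.13 (adjusted p = 0.31) without ONG_9, -0.16 (0.45) with library totals, -0.28 (0.48) without CTRL_7 and -0.46 (0.30) without CTRL_8. It was also not called with DESeq2 (0.29) or without the filter on low values (0.065).

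The ratio of TCF3 to TCF12 was 0.455 and 0.409 in Ctrl and 0.201 and 0.290 without glucose, lower in both. On the log2 scale it differed by -0.84, with an exact permutation p of 0.33, the smallest this design allows. Per kilobase of exon, TCF3 made up 40.8% and 38.3% of the reads of the 3 E protein genes in Ctrl and 23.6% and 30.8% without glucose. TCF12 made up 57.8% and 60.3%, then 75.5% and 68.3%. The remaining E protein gene, TCF4, made up 0.865% to 1.39%. TCF3 and TCF12 lie far apart in GC content (61.2% and 40.8%), along which the libraries also differed. Neither the ratio nor the shares were corrected for this, and its part in them was not tested. After the GC and length correction the log2 fold change was -0.21 for TCF3 and 0.31 for TCF12. The ratio of TAL1 to TCF12 was 0.279 and 0.286 in Ctrl and 0.155 and 0.150 without glucose, a log2 difference of -0.89 (exact permutation p = 0.33).

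**Figure D2:**
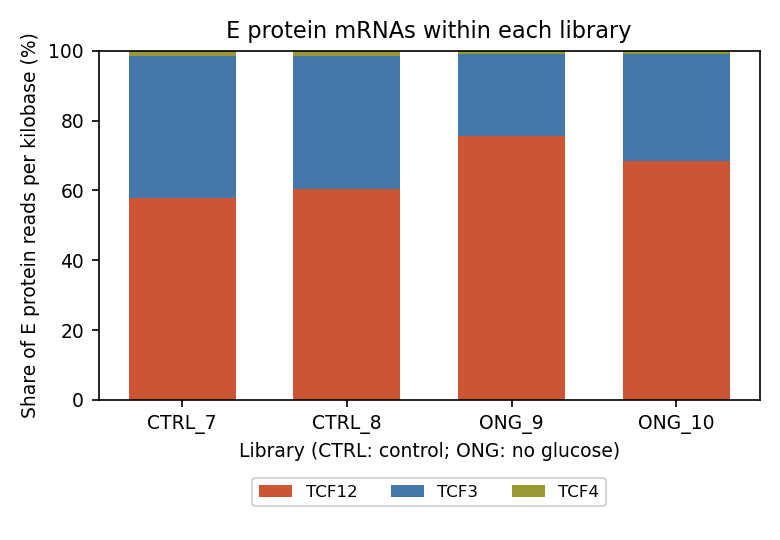
Stacked bars give each E protein gene's share (%) of the reads per kilobase of TCF12, TCF3 and TCF4 in each library. TCF3 takes 38.3% to 40.8% in the control libraries and 23.6% to 30.8% in the No glucose libraries. The shares were not corrected for GC content.

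Among the bridging proteins, LMO2 (ENSG00000135363, chr11:33858576-33892289, minus strand), a LIM-only adaptor, had 294 and 302 normalized counts in Ctrl and 227 and 248 without glucose. Both were lower, with a log2 fold change of -0.32 ± 0.11 (SE, adjusted p = 0.034). With library totals the value was -0.12 (adjusted p = 0.43), and after a correction for GC content and length -0.15 (0.22). It was also not called with DESeq2 (0.18) or without CTRL_7 (0.22), CTRL_8 (0.29) or ONG_9 (0.088). LMO1 (ENSG00000166407, chr11:8224304-8268716, minus strand), the alternative adaptor, had 0 reads in all 4 libraries. A count of 0 allows up to 0.031 reads per 1000000 in CTRL_7 and 0.122 to 0.158 in the other libraries (3 reads of the total, counting error only).

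LDB1 (ENSG00000198728, chr10:102107560-102120453, minus strand), the dimerizing protein that LMO2 binds, had 3392 and 3317 normalized counts in Ctrl and 3072 and 3288 without glucose. The values were slightly lower without glucose, by a log2 fold change of -0.08 ± 0.06 (SE, adjusted p = 0.36). The sign depended on the processing. It was 0.13 with library totals (adjusted p = 0.099) and 0.18 after the GC and length correction, where LDB1 was called higher (0.0061). Relative to LMO2, LDB1 stood at 11.55 and 10.97 times in Ctrl and 13.5 and 13.2 times without glucose, a log2 difference of 0.25 (exact permutation p = 0.33). TAL1 stood at 9.93, 9.74, 9.96 and 8.53 times LMO2 in CTRL_7, CTRL_8, ONG_9 and ONG_10, so these groups overlapped (log2 difference -0.09, exact permutation p = 1).

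RUNX1 and GATA3, the DNA-binding partners, were both higher. RUNX1 (ENSG00000159216, chr21:34787801-36004667, minus strand), a runt domain factor of blood stem and T cells, had 7139 and 7150 normalized counts in Ctrl and 11347 and 11353 without glucose. Replicates were nearly equal and the groups lay far apart, with a log2 fold change of 0.67 ± 0.05 (SE, adjusted p = 1.2e-06). RUNX1 had the largest rise among the members, though after the GC and length correction GATA3 rose more (0.61 against 0.46). RUNX1 was the one member called under all 15 alternatives, with log2 fold changes of 0.46 to 0.88. GATA3 (ENSG00000107485, chr10:8045378-8075203, plus strand), a zinc finger factor needed for T cell commitment, had 985 and 970 in Ctrl and 1292 and 1407 without glucose. Both No glucose libraries were above both controls, with a log2 fold change of 0.46 ± 0.07 (SE, adjusted p = 0.00039). This call was lost without CTRL_7 (0.080) or CTRL_8 (0.089). GATA3-AS1, the antisense RNA beside GATA3, went the other way, from 53.9 and 66.9 to 33.4 and 36.5 normalized counts (log2 fold change -0.77 ± 0.22, SE, adjusted p = 0.018). It was not called under 8 of 15 alternatives, each single left-out library among them.

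MYB (ENSG00000118513, chr6:135181315-135219173, plus strand), the proto-oncogene of the loop, was the most abundant member. It had 22326 and 22156 normalized counts in Ctrl and 30758 and 28252 without glucose, both higher than both controls. The log2 fold change was 0.41 ± 0.05 (SE, adjusted p = 8.2e-05), and 0.62 with library totals. Without CTRL_7 the adjusted p was 0.11, and without CTRL_8 0.13. The antisense gene MYB-AS1 shares 103 exonic bases with MYB and had 146 to 168 normalized counts in the 4 libraries.

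**Figure D3:**
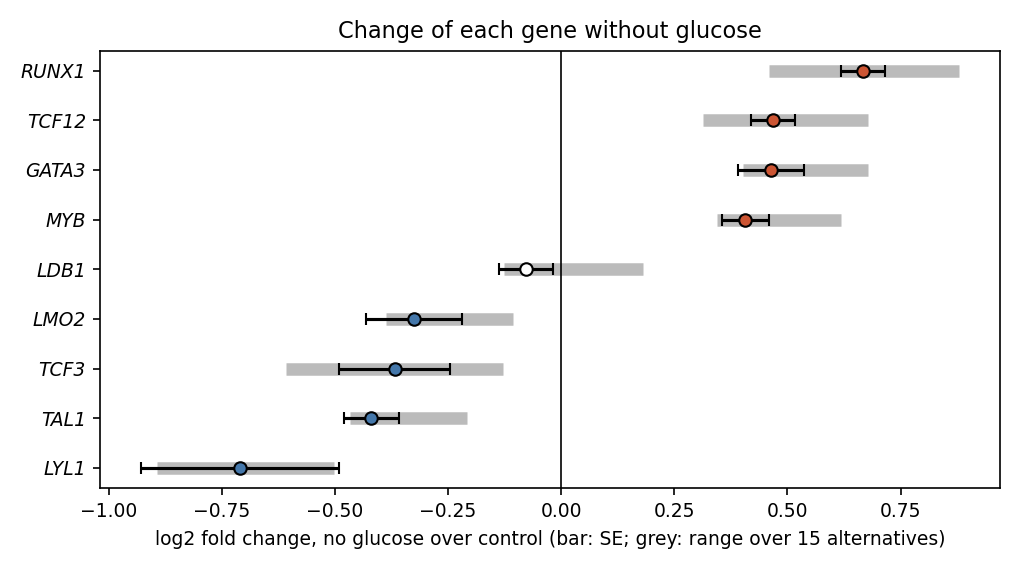
Log2 fold change of each tested gene (points, red higher, blue lower, white not called, with SE bars) and the range over 15 alternatives (grey). RUNX1, TCF12, GATA3 and MYB stay above 0 and TAL1, TCF3, LMO2 and LYL1 below 0 in every alternative, while LDB1 spans 0.

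In the authors' deposited table, 37.8% of the 19053 genes with an adjusted p were under 0.05. That table calls TAL1 lower (log2 fold change -0.42, adjusted p = 1.4e-06) and RUNX1 (0.67), TCF12 (0.47), GATA3 (0.47) and MYB (0.41) higher. The authors' deposited table does not call LYL1 (adjusted p = 0.19), LMO2 (0.20), TCF3 (0.30) or LDB1 (0.48).

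Base composition varied among the members. GC content of the longest transcript was 40.8% for TCF12, 43.9% for MYB, 47.1% for RUNX1 and 53.7% for GATA3, which were called higher. It was 53.2% for TAL1, 55.5% for LMO2, 57.4% for LYL1 and 61.2% for TCF3, which were called lower, and 59.7% for LDB1. These ranges overlapped at GATA3 and TAL1, and no test of a difference was made. Over the protein-coding genes with a mean of at least 50, the median log2 fold change was -0.12 in the GC class with the lowest values and -0.35 in the class with the highest, of 5 equal classes. The No glucose libraries differed along the same axis. The median of log2 ONG_9 minus ONG_10 was 0.10 in the lowest class and -0.27 in the highest, while CTRL_7 minus CTRL_8 was 0.00 and 0.09. TCF3 differed by -0.48 between ONG_9 and ONG_10, a larger gap than in 94.6% of those genes. A correction for GC content and length, chosen after seeing the data, left RUNX1 (0.46), GATA3 (0.61), TCF12 (0.31) and MYB (0.38) higher, and TAL1 (-0.39) and TCF3 (-0.21, adjusted p = 0.0024) lower. LYL1 (-0.51, adjusted p = 0.066) and LMO2 were no longer called.

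Levels can be compared between genes only per length, here as reads per kilobase of annotated exon per 1000000 reads of that library (mean ± SD, n = 2). In Ctrl the order was MYB (123 ± 0.456), LDB1 (36.4 ± 0.242), TCF12 (33.3 ± 0.0620), TCF3 (22.3 ± 1.73), TAL1 (15.6 ± 0.245), RUNX1 (13.9 ± 0.140), GATA3 (8.62 ± 0.0152), LMO2 (2.90 ± 0.0858), LYL1 (0.611 ± 0.106) and LMO1 (0). Neighbours in this order differed by more than their spread. With the length of the longest transcript, TCF12 came before LDB1 and RUNX1 before TAL1. Without glucose, on the same scale, MYB was at 188 ± 8.11, TCF12 at 53.3 ± 0.449, LDB1 at 40.0 ± 2.6 and RUNX1 at 25.6 ± 0.443. TCF3 stood at 20.3 ± 5.06, from 16.7 in ONG_9 to 23.9 in ONG_10, GATA3 at 13.8 ± 1.07 and TAL1 at 13.5 ± 0.408, and GATA3 and TAL1 did not differ beyond their spread. LMO2 was at 2.68 ± 0.212 and LYL1 at 0.426 ± 0.0303. TAL1 thus went from above RUNX1 and GATA3 to below RUNX1 and beside GATA3 on this scale, while with the longest transcript RUNX1 was already above TAL1 in Ctrl.

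The pattern of TAL1 was shared by many genes. Over 4 libraries, the genes closest to it in centred log2 values were SMARCC1 (root-mean-square difference 0.0025), INTS14 (0.0046) and STK39 (0.0058), and 780 of 11273 genes with a mean of at least 50 lay within 0.05 of it.

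Of 14 close relatives of the members, 10 were tested, 1 was higher and 3 were lower, with a median log2 fold change of 0.10. Here and for the lists that follow, the shares over all genes tested were 14.4% higher and 20.7% lower (median 0.04), and over protein-coding genes with a mean of at least 50 they were 18.9% and 47.2% (median -0.20). RUNX3, the runt factor of mature T cells, also rose, from 1218 and 1224 to 1774 and 1939 normalized counts (log2 fold change 0.60 ± 0.07, SE, adjusted p = 3.9e-05). Its call was lost without CTRL_7 (0.0545) or CTRL_8 (0.0531). MYBL2, the cell cycle relative of MYB, went against MYB, from 14802 and 14036 to 4279 and 5154 (-1.62 ± 0.08, SE, adjusted p = 7.7e-08). MYBL1 (-0.25, adjusted p = 0.048) and TCF4 (-0.43, adjusted p = 0.0013) fell too. MYBL1 was not called under 8 of 15 alternatives, and TCF4 not without CTRL_7 (0.107) or CTRL_8 (0.0816). TAL2, GATA1 and GATA2, relatives of TAL1 and GATA3, had at most 3.03, 5.35 and 11.2 normalized counts in any library. LMO4, another LIM-only gene, had 1034 to 1158, with overlapping groups.

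Of 20 partners and cofactors, all tested, 6 were higher and 10 lower, with a median of -0.21. The share lower and the median are near those of the abundant protein-coding genes. CBFB, the obligate partner that stabilizes RUNX proteins on DNA, fell while RUNX1 rose, from 9521 and 9517 to 5856 and 5528 normalized counts (log2 fold change -0.74 ± 0.05, SE, adjusted p = 1.0e-06). The coactivator acetyltransferases rose together, CREBBP from 1992 and 2031 to 3728 and 3891 and EP300 from 2635 and 2731 to 4631 and 4689, with KAT2B at 0.70 ± 0.09 (log2, SE; adjusted p = 0.0625 without CTRL_7). Among genes of corepressor complexes, a grouping made after their values were seen, KDM1A (-0.76), HDAC1 (-0.55), HDAC2 (-0.50), SIN3A (-0.39) and CHD4 (-0.26) fell. CBFA2T3 (0.67) went the other way and rose, and RCOR1 (adjusted p = 0.78) and CBFA2T2 (0.66) were not called, though both were called higher with library totals. Without CTRL_7 or CTRL_8, KDM1A alone of these genes kept its call. CHD4 was also not called with library totals (-0.05). The arginine methyltransferase PRMT1 fell by 1.42 on the log2 scale. SSBP4, a single-stranded DNA-binding partner of LDB1, fell by 1.25, with values of -0.97 without ONG_9 and -1.52 without ONG_10, and was not called without CTRL_7 (0.0823) or CTRL_8 (0.0614). Its relative SSBP3 fell by 0.32, a call lost without CTRL_7 (0.194), without CTRL_8 (0.163) or with library totals (-0.10, 0.291). SSBP2, the most abundant of these 3, had 6227 to 7038 normalized counts and was not called (-0.13, adjusted p = 0.087). It was called lower with edgeR and TMM (-0.17), limma-voom, limma on TMM scaling and after the GC and length correction (-0.35). With library totals its sign turned, at 0.08 with limma (adjusted p = 0.123) and 0.08 with edgeR (0.118). Of the ETS family factors that share enhancers with the complex, ERG fell by 0.88, and FLI1 (0.37) and ETS1 (0.15) rose. The ETS1 call (adjusted p = 0.032) was lost without CTRL_7 (0.455), without CTRL_8 (0.477) and without the filter on low values (0.065), and that of FLI1 without CTRL_7 (0.0901) or CTRL_8 (0.0905).

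The inhibitors of E proteins split. ID2 rose from 203 and 203 to 432 and 401 normalized counts (log2 fold change 1.03 ± 0.10, SE, adjusted p = 1.2e-05). ID1 went from 2683 and 2505 to 1786 and 2068, and ID3 from 2697 and 2556 to 1701 and 2133, with log2 fold changes of -0.43 ± 0.08 and -0.46 ± 0.09 (SE). With library totals neither ID1 (-0.22, adjusted p = 0.073) nor ID3 (-0.25, 0.105) was called by limma. After the GC and length correction ID1 was at -0.04 (0.51). Without CTRL_7 or CTRL_8 the adjusted p was 0.149 and 0.109 for ID1, and 0.197 and 0.164 for ID3, whose value without ONG_9 was -0.30. ID4 had at most 0.687 normalized counts.

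Of 11 genes listed as TAL1 targets in T cell leukaemia, 3 were higher and 7 lower, with a median of -0.58. The abundant protein-coding genes stood at 18.9%, 47.2% and -0.20. Both counts fell when either control was left out. The lists share genes: ERG, ETS1 and CBFA2T3 are also counted among the partners, and CDK6 among the MYB and E protein targets. ALDH1A2, a retinoic acid enzyme gene switched on by TAL1 in leukaemia, had 18320 and 18355 normalized counts in Ctrl and 12776 and 11744 without glucose, a call lost without CTRL_7 (0.0566) or CTRL_8 (0.059). CDK6, the cyclin-dependent kinase of G1, fell from 80084 and 78545 to 44395 and 41889, and the homeobox gene HHEX by 0.88 on the log2 scale (adjusted p = 0.0544 without CTRL_8). ARID5B, a chromatin regulator of the TAL1 loop, rose from 1878 and 1798 to 3145 and 3020 (0.75 ± 0.06, SE, adjusted p = 2.9e-06), and the corepressor CBFA2T3 from 40.5 and 41.5 to 75.8 and 57.5 (adjusted p = 0.030, and 0.17 with DESeq2, 0.235 without CTRL_7, 0.254 without CTRL_8 and 0.16 without ONG_9). TRIB2 had 1228 to 1333 normalized counts and was not called (0.09, adjusted p = 0.37), but was called higher with library totals (0.30) and after the GC and length correction (0.14).

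Of 13 genes listed as MYB and E protein targets, KIT, PTCRA and CDKN1A had a mean under 50 over the 4 libraries. They lie outside the abundant protein-coding genes, of which 47.2% were lower. None of the 13 was higher and 6 were lower, with a median of -0.14. With limma 1 was higher at an unadjusted p under 0.05 (CDKN1A); with edgeR and TMM and with DESeq2 0 passed, with unadjusted counts of 1 and 0, while limma-voom, library totals with limma or edgeR, and the GC and length correction each called 1. MYC, a target of MYB and of NOTCH1 in T cells, fell from 10227 and 9909 to 3692 and 3751 normalized counts (log2 fold change -1.44 ± 0.05, SE, adjusted p = 1.6e-08). NOTCH1 fell from 6778 and 5918 to 2726 and 4288 (log2 fold change -0.89, adjusted p = 0.00086). It was at -0.56 without ONG_9 and -1.22 without ONG_10, and was not called without CTRL_7 (0.179) or CTRL_8 (0.136). It resembled TCF3 in that ONG_9 was the lower library of its group. RAG1, the recombinase gene that E proteins activate, fell by 0.75 on the log2 scale, while its neighbour RAG2 overlapped between groups. PTCRA, the pre-T cell receptor chain gene that TAL1 restrains through E proteins, rested on 29 reads in all, with 2.68 to 7.02 normalized counts. Of 14 erythroid targets of TAL1 and GATA1, 6 passed the filter on low values. NFE2, an erythroid leucine zipper factor gene, had 19.9 and 18.7 normalized counts in Ctrl and 6.06 and 8.42 without glucose (log2 fold change -1.32, adjusted p = 0.019). It was not called with DESeq2 or when CTRL_7, CTRL_8 or ONG_9 was left out. Over these lists and the neighbours of the loci together, 10 of 65 genes tested were higher (15.4%) and 29 lower (44.6%). Over all genes tested, with the same filter on low values, the shares were 14.4% and 20.7%. Over protein-coding genes with a mean of at least 50 they were 18.9% and 47.2%. Some of the 65 genes, KIT and PTCRA among them, had means under 50, so that last set had a stricter filter. Both counts of the 65 fell with 1 library left out.

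**Figure D4:**
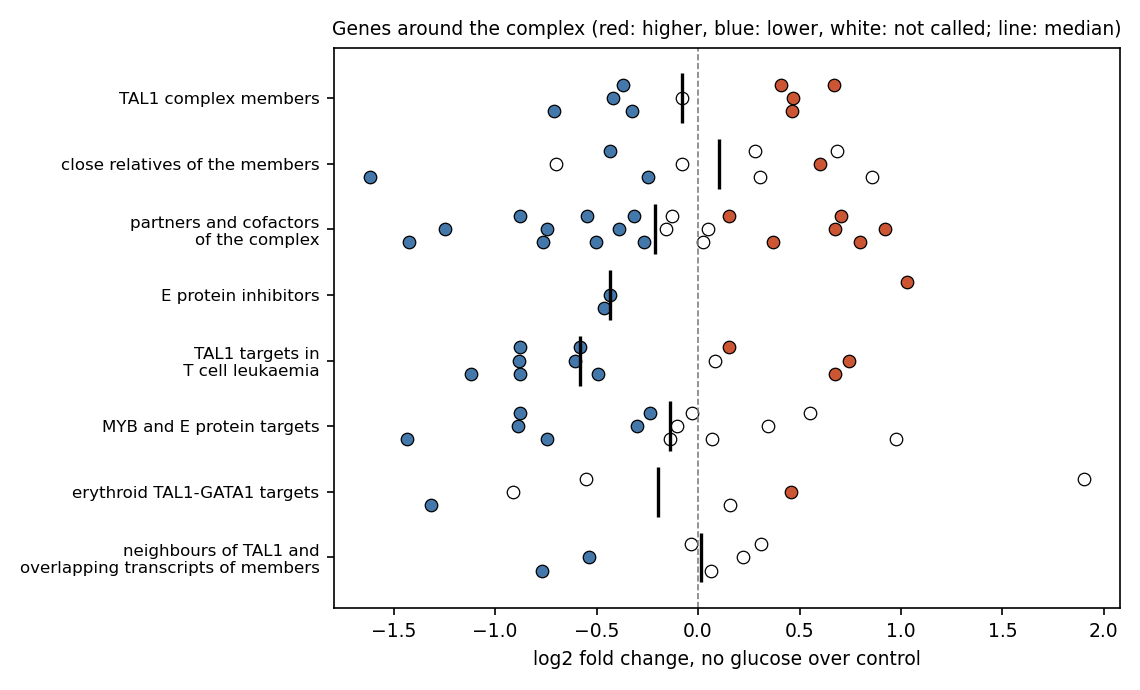
Log2 fold change without glucose of each tested gene in 8 lists, 1 point per gene (red higher, blue lower, white not called), with a line at the median of each list. The TAL1 targets lie mostly below 0 (median -0.58) and the members fall on both sides (median -0.08).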

How the data were processed

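Total RNA from 4 libraries, 2 per group, was sequenced as 75 bp single-end reads from a stranded kit, per the labels' protocols. Per the submitters' processing notes, STAR 2.6.0c, RSEM 1.3.0 and DESeq2 1.18.1 were used on hg38; the annotation and counting strand are not given in the sources used here. The signal values deposited by the authors are counts divided by a size factor per library. The deposited log2 values, score (test statistic) and p-values are those of the authors' comparison and are used only where named. Dividing by the smallest step gave whole reads, within 0.01, for 100% of values above 0. ONG columns were taken as No glucose because the deposited table is named for control against no glucose.

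The 60868 entries were reduced to 60609 identifiers, of which 58457 are in GENCODE 29 (coordinates, lengths, GC content). The test was limma-trend (limma 3.58.1, R 4.3.3), two-sided, for every gene whose mean normalized count was 1 or more, after a log2 transform with a pseudocount of 1; p-values were Benjamini-Hochberg adjusted over every gene; fold changes on this scale understate changes of low genes. On simulated reads for 27441 genes, limma called 43 of 50 genes raised 1.5-fold, 50 of 50 raised 2-fold and 50 of 50 raised 4-fold. Of 50 genes lowered to 0.5-fold it called 47. There were 3 false calls among 193. The simulation used a common dispersion, changed only genes with a mean of at least 50 and held no GC shift between libraries. Its share of false calls therefore need not hold for these libraries. The 15 alternatives comprise edgeR 4.0.16 and DESeq2 1.42.0 on the recovered reads, limma-voom, library-total and TMM scaling, changed filters or pseudocounts, each library omitted, and a GC and length correction chosen after seeing the data. Nothing in the labels says that replicates were separate cultures, so the p-values reflect variation among these libraries alone, possibly technical. Members and lists were chosen with earlier results of these data known. Named genes were all members, STIL, CBFB, MYC and PTCRA, up to 3 called genes in each direction per list, and the 3 genes most like TAL1; others were added to complete a group and were chosen after their values were seen. A few genes that this rule names are not reported here.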

Additional observations from a re-analysis of the deposited data

How the results depend on the processing

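Over all genes, 3948 were higher and 5695 lower. These counts were 2436 and 4866 with DESeq2, 6109 and 3818 with limma on library totals, 6735 and 3979 with edgeR on library totals, and 6362 and 5870 after the GC and length correction. Library totals moved the median of all genes from 0.04 to 0.23 (limma) and 0.28 (edgeR). With 1 library left out, 635 (without CTRL_8) to 3024 genes were higher and 1573 (without CTRL_7) to 5708 lower. The 4 members called higher were 5 after the GC and length correction, which added LDB1, and 1 to 4 with 1 library left out, RUNX1 alone without CTRL_7 or CTRL_8. The 4 members called lower were 1 with DESeq2, 1 with limma on library totals, 2 with edgeR on library totals and 2 after the GC and length correction. With 1 library left out they were 0 to 3: limma gave 0 without CTRL_7 (1 at an unadjusted p under 0.05), 0 without CTRL_8 (2 unadjusted) and 1 without ONG_9. In the other lists together, 10 higher genes became 17 with edgeR on library totals and 4 to 9 with 1 library left out, and 29 lower genes became 9 to 28. Signs turned, among others, for LDB1, at 0.18 after the GC and length correction and 0.13 with limma or edgeR on library totals. STIL turned to 0.17 with limma and 0.17 with edgeR, on library totals. With limma on library totals SSBP2 (0.08), RAG2 (0.10) and LMO4 (0.13) also turned. The log2 TAL1 to LMO2 ratio ran from -0.21 without ONG_9 to 0.017 without ONG_10. The cause of these turns was not tested. A left-out control leaves 1 control, assumed to vary like the other group. LYL1, at 24 to 207 reads, is limited by depth. No paired analysis was possible because the columns carry none of the replicate numbers of the labels.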
